A study of Mus musculus with 12 samples.

Results

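In regulatory T cells (Tregs) of SAMP/YitFC mice, 195 genes were lower in each of the 6 libraries titled KO than in any of the 6 libraries titled WT. They were taken from 11031 genes whose deposited log2 CPM (counts scaled to library size) averaged 1 or more over the 12 libraries. In all, 200 of those genes (1.81%) had titled KO values wholly below the titled WT values, and 5 of them were set aside because the rule left out 9 gene names. For comparison, 100 genes (0.907%) were higher in every titled KO library. The members were chosen by their log2 CPM in titled KO against titled WT libraries, so that difference is given below as a description and without a test.

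The series crossed sex with the presence or absence of estrogen receptor beta (ERb, gene Esr2), with 3 libraries in each of 4 groups. The groups were SAMP/YitFC-WT males, SAMP/YitFC-WT females, SAMP/YitFC-ERb-KO males and SAMP/YitFC-ERb-KO females, where KO means that ERb is lacking in the whole body and not only in T cells. All mice were untreated and of the SAMP line, which develops ileitis spontaneously, so no group had a healthy gut background. The cells were CD4+CD25hiCD127lo singlets sorted from mesenteric lymph nodes, although the labels call them intestinal. Ages, the number of mice behind a library and any pooling are not given in the labels. RNA-seq was done on cDNA made with SMART-Seq v4 and libraries made with Nextera XT, which do not mark the strand.

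Tregs are the CD4 T cells that restrain immune responses under the control of the transcription factor Foxp3. ERb is a nuclear receptor that, with estrogen bound, can act on genes through DNA elements whose arms read GGTCA. The members belong to no single known pathway, and many encode housekeeping parts of the cell such as vesicle traffic, protein modification and RNA handling.

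The titles were not borne out by several transcripts. Esr2 had 94 to 161 counts in 6 libraries (WT female 2 and 3, KO male 3 and all 3 titled KO females) and 0 to 14 in the other 6. Transcripts of Xist and of Y-linked genes went against the titled sex in 4 libraries, WT female 2, KO male 1, KO male 2 and KO female 1. Y-linked transcripts were thus found in WT male 1, 2 and 3 and WT female 2, but among titled KO only in KO male 3 and KO female 1. Sex by transcript was therefore uneven between the titles that the rule compared. Groups in the text follow the titles throughout. Libraries held 13.4 to 16.7 M counts in titled WT and 10.2 to 14.8 M in titled KO, so titled KO libraries were shallower on the whole. The Treg markers Foxp3, Il2ra, Ctla4, Ikzf2, Cd4 and Cd3e were all present, with summed levels of 3020 to 4209 CPM in titled WT and 3661 to 4326 CPM in titled KO. The sum hides differences between them: 2 of the 6, Cd3e (mean 823 and 1133 CPM) and Cd4, were higher on average in titled KO. The means of Foxp3, Il2ra, Ctla4 and Ikzf2 were lower. Ikzf2 was uneven in titled KO, at 96.7 to 469 CPM against 240 to 360 CPM in titled WT.

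Most members were lower by a modest amount. The ratio of the titled KO mean CPM to the titled WT mean CPM had a median of 0.706. It was 0.5 or less in 10 members, between 0.5 and 0.667 in 42 and above 0.667 in 143. The titled KO minus titled WT difference of mean log2 CPM had a median of -0.50 over the members, with a middle range of -0.61 to -0.41. Over all 11031 genes the median was -0.03. Summed over all members, the level was 29546, 30307 and 32136 CPM (lowest, median, highest) in titled WT and 20332, 22421 and 24114 CPM in titled KO. Members were also more abundant than other genes, with a median of their mean log2 CPM of 6.23 against 5.42, and, with the genes cut into 5 equal bins by level, 63 of them lay in the highest bin and 13 in the lowest. In bulk libraries such as these, fewer cells of a type and less RNA per cell cannot be told apart.

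**Figure D1:**
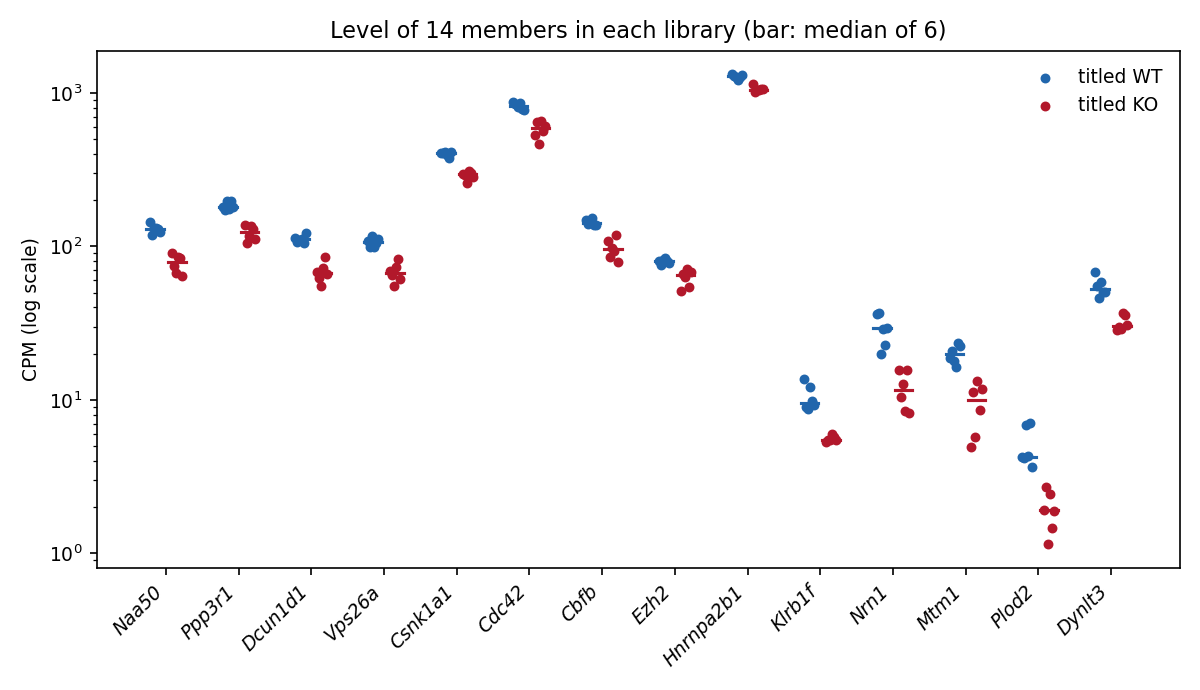
Level of 14 members in each library, in CPM on a log axis, with titled WT in blue, titled KO in red and a bar at the median of 6 libraries. In each gene all red points lie below all blue points, as the rule requires; Klrb1f and Naa50 have some of the widest gaps (0.56 and 0.40 on the log2 scale), while those of Ezh2 and Hnrnpa2b1 (both 0.09) are nearer to the member median of 0.07.

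The gap between the lowest titled WT and the highest titled KO library was narrow for most members. Its median was 0.07 on the log2 scale, it was under 0.05 in 67 members and at least 0.2 in 29, and the widest was 0.56. Just inside the rule stood Dcun1d2 with a gap of 0.0001, Bclaf1 with 0.0009 and Suv420h1 with 0.001, and just outside stood Cnot6 with -0.0009, Mettl14 with -0.001 and Dll1 with -0.002. At the level threshold, Piwil4 (mean log2 CPM 1.00), Kcnk1 (1.18) and Plod2 (1.60) were just inside, and Rasl11a (0.55), Slc6a7 (-0.12) and Yes1 (-0.27) just outside. The highest titled KO value was in KO female 2 for 69 members and in KO female 1 for 44. The lowest titled WT value was in WT male 1 for 50 members and in WT female 2 for 47. The number of genes that met the rule therefore depended on single libraries: it was 361 without KO female 2 and 310 without WT male 1. At the far ends, KO male 3 held the lowest titled KO value of 74 members and WT male 3 the highest titled WT value of 55.

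Klrb1f, which encodes a C-type lectin-like receptor of the NKR-P1 family, had the widest gap (chromosome 6, 129045837 to 129059724, GRCm38.p6). Its level was 13.7, 8.96 and 8.77 CPM in WT male 1, 2 and 3 and 12.04, 9.86 and 9.27 CPM in WT female 1, 2 and 3. In titled KO it was 5.28, 5.48 and 5.45 CPM in males 1, 2 and 3 and 5.94, 5.74 and 5.46 CPM in females 1, 2 and 3. The titled KO libraries lay close together, while WT male 1 and WT female 1 stood above the other titled WT libraries. The mean log2 difference was -0.89 (SE 0.11, n = 6 and 6).

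Naa50 encodes the catalytic subunit of the N-terminal acetyltransferase NatE, which modifies the first residue of many proteins (chromosome 16, 44139791 to 44163462). It measured 119.5, 130.4 and 143 CPM (lowest, median, highest) in titled WT and 64.1, 79.3 and 90.6 CPM in titled KO. WT male 1 was highest and KO female 3 lowest, and the 2 ranges were separated by more than the spread within titled WT. Its mean log2 difference was -0.75 (SE 0.09). Ppp3r1 encodes the regulatory subunit of calcineurin, the phosphatase that activates NFAT after T cell receptor signals (chromosome 11, 17159298 to 17200380). Its level was 172, 181 and 199 CPM in titled WT and 104.9, 123 and 138 CPM in titled KO, a mean log2 difference of -0.59 (SE 0.07). The catalytic calcineurin genes Ppp3ca (-0.27, SE 0.18), Ppp3cb (-0.36, SE 0.21) and Ppp3cc (-0.02, SE 0.08) were not members and their groups overlapped. Dynlt3, a dynein light chain gene on the X chromosome, had 46.2, 52.9 and 67.9 CPM in titled WT and 28.5, 30.4 and 37.0 CPM in titled KO (difference -0.78, SE 0.10). Anp32e encodes a histone chaperone and differed by -0.51 (SE 0.06). AI597468, a protein-coding gene with a provisional name, had 17.9, 19.8 and 21.4 CPM in titled WT and 8.60, 11.5 and 13.8 CPM in titled KO (difference -0.82, SE 0.11).

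The members with the largest mean differences were mostly of low level. Kcnk1, a potassium channel gene, had 4.13, 5.02 and 6.79 CPM in titled WT and 0, 2.08 and 3.35 CPM in titled KO. KO male 1 had no Kcnk1 count, which allows up to 3 counts at its depth. Its ratio of mean CPM was 0.355, and its mean log2 difference, -2.42 with all libraries, was -1.27 without KO male 1. Efcab7, an EF-hand protein gene, had 4.51, 6.84 and 9.58 CPM in titled WT and 0.191, 3.59 and 4.39 CPM in titled KO. Its difference of -1.53 (SE 0.71) was -0.83 without KO male 3, the lowest library. Cx3cl1, which encodes the chemokine fractalkine, had 4.25, 6.23 and 9.15 CPM in titled WT and 1.05, 2.59 and 3.65 CPM in titled KO (difference -1.42, SE 0.31). Plod2, a lysyl hydroxylase gene for collagen cross-linking, had 3.63, 4.26 and 7.06 CPM in titled WT and 1.15, 1.90 and 2.71 CPM in titled KO (difference -1.39, SE 0.25).

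Nrn1 encodes neuritin, a small membrane-anchored protein first described in neurons. It had 19.8, 29.3 and 36.6 CPM in titled WT and 8.15, 11.5 and 15.7 CPM in titled KO, with a difference of -1.31 (SE 0.22), so that WT male 3, the lowest titled WT library, was nearest to the titled KO range. Mtm1 encodes myotubularin, a phosphatase of endosomal phosphoinositides. Its level was 16.5, 19.8 and 23.3 CPM in titled WT and 4.96, 9.92 and 13.2 CPM in titled KO (difference -1.19, SE 0.25), with KO male 1 and KO male 3 lowest. Zfp946, a zinc finger gene, differed by -1.30 (SE 0.25) and Piwil4, an Argonaute family gene, by -1.15 (SE 0.28). Piwil4 was the member of lowest level, with 1.80 to 6.20 CPM in titled WT and 0.880 to 1.62 CPM in titled KO.

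The most abundant members were Hnrnpa2b1, Mbnl1, Tpm3 and Rassf5, and all but Mbnl1 had differences smaller than the member median. Hnrnpa2b1, which encodes an RNA-binding protein of splicing and RNA transport, had 1218, 1283 and 1326 CPM in titled WT and 1021, 1053 and 1146 CPM in titled KO (difference -0.27, SE 0.03). Mbnl1, a splicing regulator gene, had 939.7, 1322 and 1366 CPM against 637, 777 and 921 CPM (difference -0.68, SE 0.12), with WT male 1 lowest among titled WT and near KO female 2, the highest in titled KO. Tpm3, a tropomyosin gene, differed by -0.24 (SE 0.06). Rassf5, whose product links the GTPase Rap1 to integrin adhesion, differed by -0.26 (SE 0.08). Csnk1a1, the gene of casein kinase 1 alpha, combined a high level with a wide gap, at 379, 407 and 415 CPM in titled WT and 259.9, 295 and 309 CPM in titled KO (difference -0.47, SE 0.04).

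Vesicle traffic was the list with the most members. Of 73 genes for vesicle coats, Rabs and endosomal sorting above the level threshold, 7 were members (9.59%) and none was higher in every titled KO library. Over all genes 1.81% met the rule, and that share applies to the lists below too. The median GC content of the vesicle list was 44.4%, against 49.9% over all genes, and GC content is described further below. The median difference of the list was -0.24, with 66 of 73 genes below 0. Vps26a, a subunit of the retromer that recycles cargo from endosomes, had 99.3, 107 and 117 CPM in titled WT and 55.5, 67.4 and 82.6 CPM in titled KO (difference -0.66, SE 0.09). Chmp1b, a part of the ESCRT machinery that pinches membranes, differed by -0.64 (SE 0.08). Rab5a of early endosomes differed by -0.62 (SE 0.11), Rab18 by -0.47 (SE 0.12), Rab6a of the Golgi by -0.44 (SE 0.08), Rab10 by -0.41 (SE 0.07) and the Golgi GTPase gene Arl1 by -0.45 (SE 0.09). The Rab genes as a name family held these 4 members among 46 genes, with a median of -0.12.

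Genes of protein tagging formed the next set. Cullin E3 ligases are switched on when the ubiquitin-like protein NEDD8 is attached to them, and 3 of 37 genes of this list were members (list median -0.25, 33 of 37 below 0). Dcun1d1, which helps to attach NEDD8 to cullins, had 105.1, 112 and 122 CPM in titled WT and 55.3, 67.1 and 85.0 CPM in titled KO (difference -0.73, SE 0.09). Its relative Dcun1d2 stood at the edge of the rule with -0.28 (SE 0.11), or -0.18 without KO male 1, and Uba3, a subunit of the enzyme that activates NEDD8, differed by -0.52 (SE 0.16). Nedd8 itself differed by -0.09 (SE 0.16) and overlapped between the groups. Of 55 other ubiquitin enzymes 4 were members, all of them ubiquitin-conjugating enzymes (median of the whole list -0.22). These were Ube2j1 (-0.57, SE 0.12), Ube2w (-0.51, SE 0.07), Ube2d3 (-0.46, SE 0.12) and Ube2g1 (-0.44, SE 0.08). None of 34 deubiquitinases was a member (list median -0.24), which in a list of this size is near the 1.81% of all genes. Median GC content was 44.8% in the cullin list, 44.8% in the list of other ubiquitin enzymes and 44.3% in the deubiquitinases.

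Actin and signalling genes with known roles in T cells were among the members. Cdc42, the GTPase that polarises the actin skeleton, had 771, 828 and 868 CPM in titled WT and 465, 589 and 662 CPM in titled KO (difference -0.51, SE 0.08). Its effector kinase Pak2 differed by -0.54 (SE 0.11), the actin-binding twinfilin gene Twf1 by -0.51 (SE 0.09) and the tropomodulin gene Tmod3 by -0.44 (SE 0.05). In the MAP kinase and Ras list 3 of 46 genes were members (median -0.18), namely Stk17b (-0.66, SE 0.12), Rap1a (-0.53, SE 0.08) and Taok3 (-0.46, SE 0.08). Stk17b, also known as Drak2, sets the threshold of T cell activation and had 569, 653 and 728 CPM in titled WT and 301, 449 and 491 CPM in titled KO. In the PI3K, AKT, mTOR and AMPK list 2 of 39 genes were members (median -0.08), the mTORC1 activator Rheb (-0.49, SE 0.10) and the AMPK catalytic subunit gene Prkaa1 (-0.55, SE 0.10). Of 44 protein phosphatase genes, Ppp2r3c (-0.28, SE 0.06) was a member beside Ppp3r1.

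Of 78 transcription factors of T cells 6 were members, and the median of the list was -0.12. Cbfb encodes the shared partner of the Runx factors and had 138, 142 and 154 CPM in titled WT and 79.7, 95.7 and 119 CPM in titled KO (difference -0.58, SE 0.09). Its partners Runx1 (-0.30, SE 0.17) and Runx3 (0.20, SE 0.11) overlapped between the groups. The others were the CREB family genes Creb1 (-0.67, SE 0.15) and Atf2 (-0.50, SE 0.07), the ETS family genes Gabpa (-0.61, SE 0.14) and Elf1 (-0.42, SE 0.09), and Ikzf3 (-0.35, SE 0.10), which encodes Aiolos. Of 74 chromatin genes 3 were members (median -0.08), the remodelling ATPase Smarca5 (-0.60, SE 0.13), the Polycomb methyltransferase Ezh2 (-0.37, SE 0.08) and the Polycomb gene Bmi1 (-0.33, SE 0.07). Ezh2 had 75.7, 80.5 and 83.95 CPM in titled WT and 51.0, 64.9 and 71.3 CPM in titled KO. Its complex partners Eed (-0.09, SE 0.06) and Suz12 (-0.54, SE 0.24) overlapped between the groups. Of 49 genes of general transcription and its coregulators 2 were members, Gtf2a1 (-0.72, SE 0.11) and Gtf2h1 (-0.36, SE 0.08).

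Several further lists, given in this paragraph, held 0 or 1 member, which in lists of this size is near the 1.81% of all genes that met the rule. None of 42 Treg effector and homing genes, 54 interferon response genes, 82 cell cycle genes, 38 nuclear pore genes, 46 genes of the endoplasmic reticulum or 22 estrogen receptor and estrogen-responsive genes was a member. Their list medians were -0.02, 0.12, -0.13, -0.16, -0.07 and 0.05 in that order. Cd44, an adhesion receptor gene of activated T cells, was the member among 52 T cell receptor and costimulation genes (list median 0.05). It had 148, 164 and 224 CPM in titled WT and 108, 124 and 148 CPM in titled KO, with a gap of only 0.004. Il18r1, a subunit gene of the receptor for interleukin 18, was the member among 45 cytokine receptor genes and differed by -0.41 (SE 0.07). Casp4, an inflammatory caspase gene, was the member among 37 apoptosis genes (-0.57, SE 0.15).

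RNA handling and metabolism completed the lists. Of 50 genes of mRNA decay and translation control 4 were members (median -0.19), the initiation factor Eif1a (-0.53, SE 0.10), the RNA-binding proteins Elavl1 (-0.40, SE 0.09) and Fxr1 (-0.36, SE 0.09) and the deadenylase Cnot7 (-0.32, SE 0.07). Of 50 splicing genes, Rbm26 (-0.44, SE 0.08) was a member beside Hnrnpa2b1 and Mbnl1. Members of the amino acid, nucleotide and sugar metabolism list (61 genes, median -0.07) included the glutathione genes Gsr (-0.32, SE 0.06) and Gclm (-0.31, SE 0.06), and Mat2b (-0.27, SE 0.07). Of 59 mitochondrial genes 3 were members, Slc25a24 (-0.79, SE 0.31), Suclg2 (-0.43, SE 0.15) and Cox15 (-0.29, SE 0.07). Slc25a24 differed by -1.26 without the 4 libraries whose sex-linked transcripts contradicted the title. Of 35 autophagy genes 2 were members, the receptor gene Tax1bp1 (-0.46, SE 0.11) and Atg12 (-0.33, SE 0.13). Mtm1 was the member among 57 lipid and phosphoinositide genes. In all, 56 members stood in one of the 26 lists and 139 in none.

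The sequence property that members shared most was low GC content, which the rule did not use. The longest annotated transcript of 190 members had a median GC content of 42.4%, with a middle range of 40.3 to 44.96%. Over 10792 genes the median was 49.9%, and over the genes higher in every titled KO library it was 56.4%. When all genes were ranked by GC and cut into 5 equal bins, the bins held 126, 36, 21, 5 and 2 members from the lowest to the highest. That is 5.84% of the genes of the lowest bin and 0.0926% of those of the highest. Genes higher in every titled KO library ran the other way, with 2, 3, 14, 24 and 54 per bin. The difference lay in both the coding part (45.9% against 52.5%) and the 3' untranslated region (37.1% against 44.5%).

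**Figure D2:**
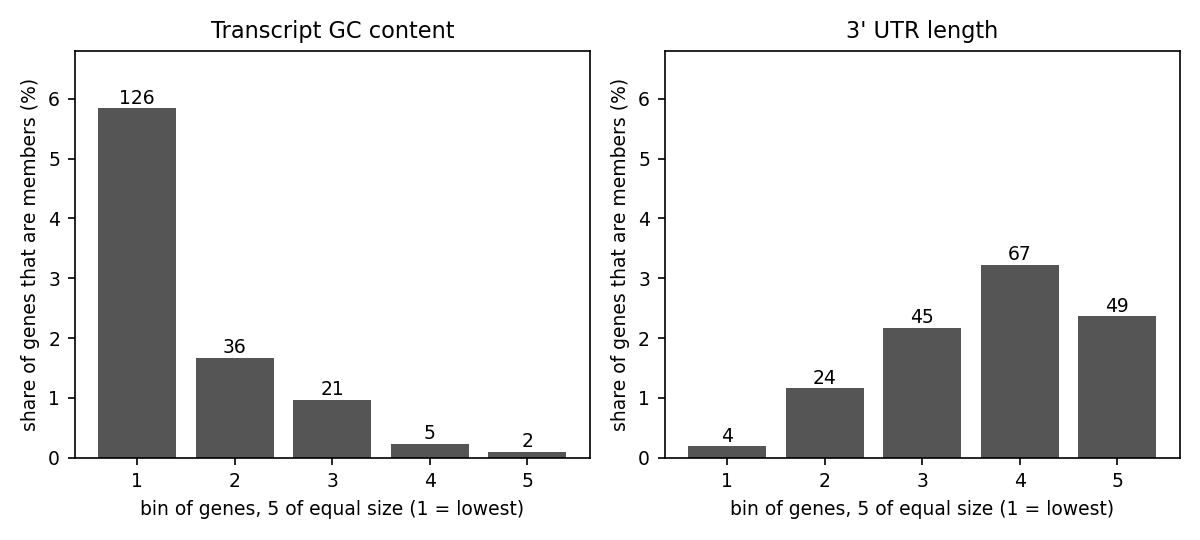
Share of genes that are members, in percent, by 5 equal bins of transcript GC content (left) and of 3' UTR length (right), with the number of members above each bar. The lowest GC bin holds 126 members and the highest 2, while 3' UTR length peaks at 67 members in bin 4.

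Length differed less than GC. The median transcript length was 3431 bases for members and 3065 for all genes, and the coding part was slightly shorter, at 1248 against 1359 bases. The 3' untranslated region was longer, at 1865 against 1142 bases, and bins of its length held 4, 24, 45, 67 and 49 members. Bins of whole transcript length held 13, 32, 61, 53 and 31 members, so the middle bin held the most. The gene span on the chromosome was 35051 bases for members and 22491 for all genes. Of the 195 members 189 were annotated as protein coding.

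The last 120 coding bases of 4 members show the range, with G and C in capitals. Naa50 and Ppp3r1 were chosen as members of low GC content with wide gaps, and Nr1d1 and Cx3cl1 because they were the members in the highest GC bin.
Naa50: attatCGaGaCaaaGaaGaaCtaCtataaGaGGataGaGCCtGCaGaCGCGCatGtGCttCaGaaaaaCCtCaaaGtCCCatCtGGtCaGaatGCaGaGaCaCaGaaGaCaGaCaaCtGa
Ppp3r1: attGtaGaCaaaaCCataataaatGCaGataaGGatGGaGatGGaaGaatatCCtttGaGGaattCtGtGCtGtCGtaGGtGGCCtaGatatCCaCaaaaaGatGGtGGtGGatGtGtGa
Nr1d1: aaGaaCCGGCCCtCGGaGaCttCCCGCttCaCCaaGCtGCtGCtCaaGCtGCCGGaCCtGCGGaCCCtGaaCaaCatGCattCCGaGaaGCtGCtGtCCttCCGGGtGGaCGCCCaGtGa
Cx3cl1: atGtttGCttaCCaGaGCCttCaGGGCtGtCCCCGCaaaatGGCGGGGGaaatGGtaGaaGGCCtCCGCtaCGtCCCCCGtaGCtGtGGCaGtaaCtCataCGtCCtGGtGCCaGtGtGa
These ends are G or C at 53 positions in Naa50, 48 in Ppp3r1, 74 in Nr1d1 and 69 in Cx3cl1. Over the whole transcript the GC content was 37.2% in Naa50, 41.4% in Ppp3r1, 56.8% in Nr1d1 and 57.1% in Cx3cl1. Nr1d1, which encodes the nuclear receptor REV-ERB alpha, overlaps Thra on chromosome 11 (98767932 to 98775377), and Cx3cl1 lies on chromosome 8 (94772180 to 94782427).

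Genes of low GC content that were not members differed between the titles in the same direction. Their differences were smaller, which the rule's choice of members largely set in advance. For each library the deviation of each gene from its mean over the 12 libraries was taken on the log2 scale. The median deviation of the members was 0.19 to 0.30 in titled WT and -0.39 to -0.12 in titled KO. For the 2033 non-members of the lowest GC bin it was 0.06 to 0.16 in titled WT and -0.23 to 0.04 in titled KO, and these ranges did not overlap either. For the 2157 non-members of the highest GC bin it was -0.08 to -0.03 in titled WT and -0.002 to 0.21 in titled KO. Over all genes, the median titled KO minus titled WT difference ran from -0.24 in the lowest GC bin through -0.03 in the third to 0.14 in the highest. The libraries did not line up exactly: KO male 1 had one of the lowest member values (-0.28) but a low-GC non-member value of 0.01.

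**Figure D3:**
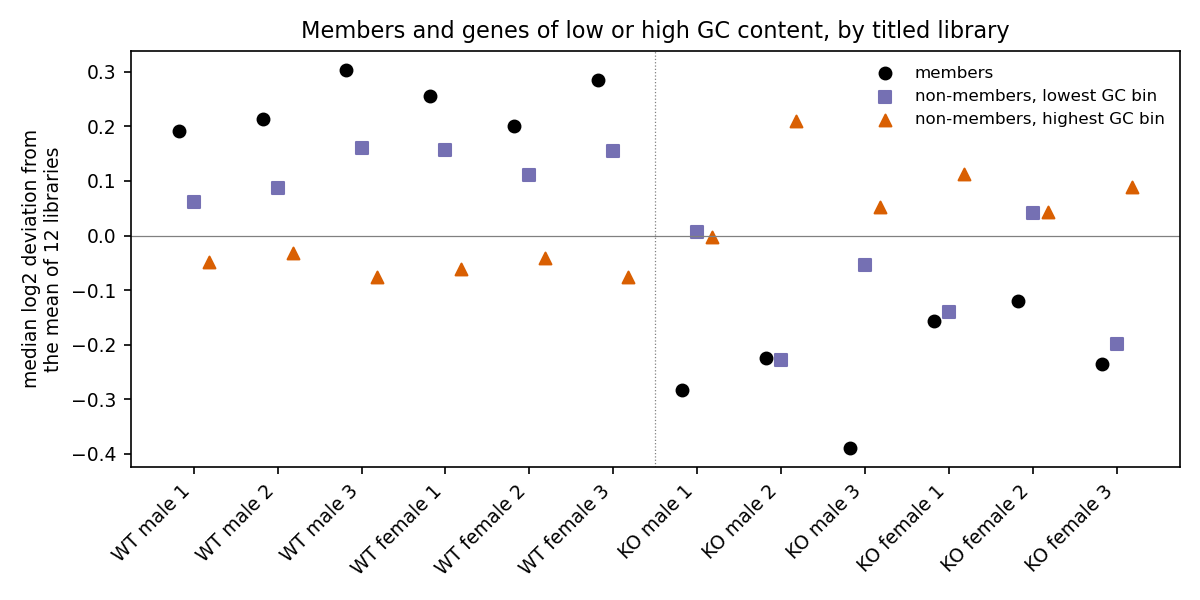
Median log2 deviation from the mean of the 12 libraries, in each titled library, for the members (black), 2033 non-members in the lowest GC bin (purple) and 2157 non-members in the highest GC bin (orange). Members lie above 0 in titled WT and below 0 in titled KO; low-GC non-members follow them in a narrower range, except in KO male 1 and KO female 2, where they are just above 0.

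The 28 members in the upper 3 bins of GC content had differences of the same order as the rest. Their median deviation was 0.16 to 0.28 in titled WT and -0.38 to -0.07 in titled KO. The rule set these ranges apart, and the sign of each difference, by its choice of genes, so the values are a description. By GC bin from lowest to highest, the members' median difference was -0.52, -0.45, -0.46, -0.59 and -1.15. The last value rests on Nr1d1 and Cx3cl1 alone. Nr1d1 had 34.2, 41.4 and 54.8 CPM in titled WT and 10.1, 29.2 and 31.7 CPM in titled KO (difference -0.88, SE 0.30), with KO male 1 and KO male 3 lowest. Serpina3g, a serine protease inhibitor gene of GC content 50.6%, had 490.0, 557 and 587 CPM in titled WT and 238, 380.4 and 439 CPM in titled KO (difference -0.61, SE 0.14). It belongs to a cluster of closely similar genes between which counting may split reads, so its value is uncertain.

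When a smooth trend with GC content and length was removed from each library, 54 of 190 members still had every titled KO value below every titled WT value. By the same rule 118 of 10792 genes (1.09%) did so. The members' median difference shrank to -0.30, and 188 of 190 differences stayed below 0, against a median of -0.02 over all genes. The rule chose members for low titled KO values in these same libraries, which largely set that sign and the separation in advance. The values over all genes are therefore not a like comparison. From the lowest to the highest GC bin, 22, 12, 13, 5 and 2 members stayed separated. Among them were Klrb1f (-0.69), Naa50 (-0.38), Ppp3r1 (-0.37), Dcun1d1 (-0.44), Vps26a (-0.50), Cdc42 (-0.36), Cbfb (-0.39), Csnk1a1 (-0.25), Plod2 (-1.17), Nrn1 (-1.23) and Kcnk1 (-2.48). Among those whose groups then overlapped were Mtm1 (-0.86), Stk17b (-0.35), Ezh2 (-0.23), Hnrnpa2b1 (-0.15) and Bmi1 (-0.05). Bclaf1 (0.02) and Mtf2 (0.08) were the members that changed sign. Whether the GC trend arose in the cells or in making the libraries was not tested.

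**Figure D4:**
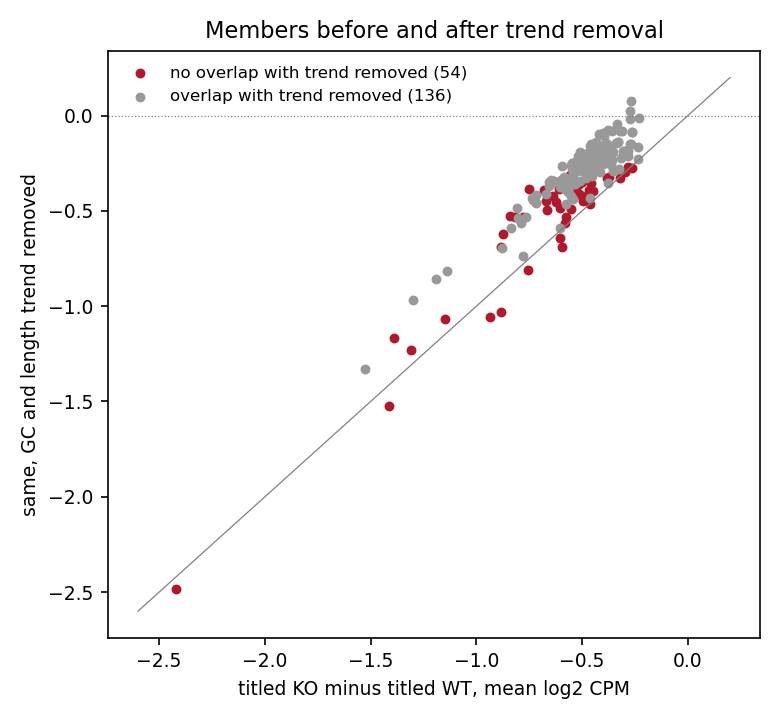
Titled KO minus titled WT difference of mean log2 CPM for 190 members, as deposited (horizontal axis) and with the GC and length trend removed (vertical axis), with a line where both are equal. Most points lie above the line, nearer to 0, and 54 members (red) still have no overlap between the titles.

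Depth and markers of other cells also moved with the titles. With every library thinned to the smallest total, 170 genes met the rule and 151 of the members were among them. Summed B cell markers were 40.01 to 229 CPM in titled WT and 179 to 398 CPM in titled KO, with all 10 markers higher on average in titled KO. Plasma cell markers (5 of 5 higher) summed to 4.99 to 43.6 CPM and 30.9 to 307 CPM, and macrophage and monocyte markers (8 of 8 higher) to 18.5 to 299 CPM and 131 to 348 CPM. Neutrophil markers (7 of 8 higher) summed to 0 to 1.01 CPM in titled WT and 1.84 to 50.3 CPM in titled KO and did not overlap. Stromal and endothelial markers (6 of 7 higher) summed to 88.5 to 132 CPM and 122 to 185 CPM, CD8 and NK cell markers (4 of 6 higher) to 35.1 to 58.9 CPM and 38.9 to 99.8 CPM, and dendritic cell markers (5 of 7 higher) to 5.17 to 24.8 CPM and 12.2 to 21.3 CPM. No marker of any list was a member, and the part of other cells in the members' lower values was not tested. Without WT female 1 and WT female 2, the titled WT libraries with the most macrophage and monocyte signal, the members' median difference was -0.50. It was bound to stay below 0, because members separated over 12 libraries stay separated in any part of them.

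The members were also set against the Esr2 count. Libraries with 50 or more Esr2 counts include 2 titled WT and 4 titled KO libraries, so no member could be separated by Esr2 over all 12 libraries. Of the members 187 had a lower mean in those 6 libraries than in the other 6, a split that shares the title difference by which the members were chosen. The rule did not compare libraries within a title. Within titled WT the 2 libraries with 133 and 159 counts differed from the 4 with 0 to 14 by a median of -0.01 over the members and 0.00 over all genes. Of the members 10 (5.13%) were lower in both high libraries than in all 4 low ones, against 5.38% of all genes, and 3 (1.54%) were higher, against 5.29%. Within titled KO the 4 libraries with 94 to 161 counts differed from the 2 with 2 and 8 by a median of 0.03. There 5 members (2.56%) were lower, against 4.63% of all genes, and 9 (4.62%) were higher, against 2.94%. Cdc42, Cbfb, Ube2d3, Bzw1 and Ghitm were among the 10 that were lower within titled WT, and Mtm1 was among the 3 that were higher. With the limit at 50 counts no member was lower, and none higher, in the high libraries within both titles. With the limit at 10 counts Scp2 was lower within both, and Zfp191, Arrdc4 and Plekha1 were higher within both. The share of all genes that did so within both titles was not counted at either limit, so nothing is read from these names. These values are a description of libraries split by a measured count.

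**Figure D5:**
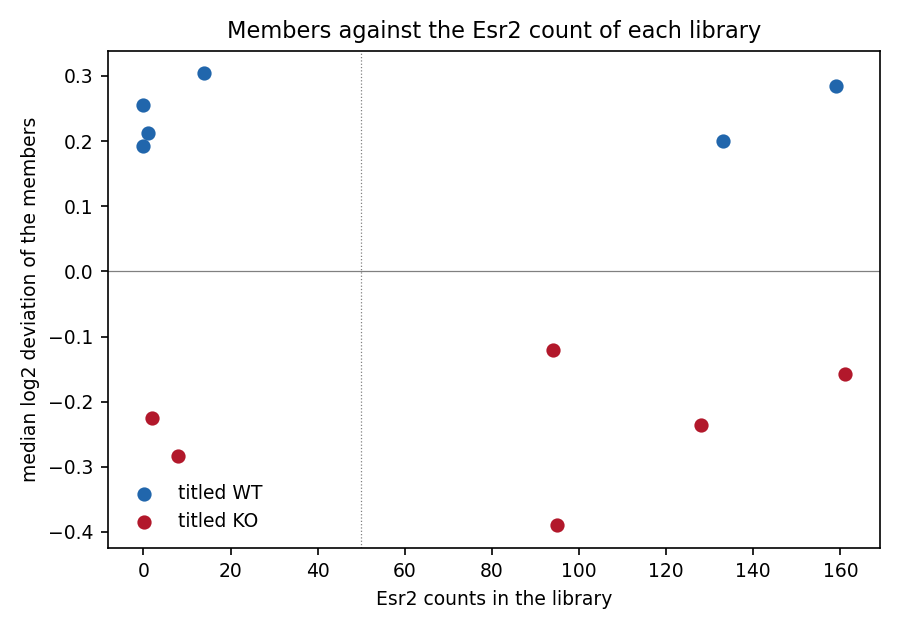
Median log2 deviation of the 195 members from their mean over 12 libraries against the Esr2 count of each library, with titled WT in blue, titled KO in red and a dotted line at 50 counts. Members are between 0.19 and 0.30 in titled WT and between -0.39 and -0.12 in titled KO on both sides of the line.

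Naa50, Dcun1d1 and Zfx show this by library. In titled WT, Naa50 was at 129.9 and 125 CPM where Esr2 was high (females 2 and 3) and at 119.5 to 143 CPM where it was low. In titled KO it was at 64.1 to 85.6 CPM in the 4 libraries with high Esr2 and at 90.6 and 74.4 CPM in males 1 and 2, where Esr2 was low. Dcun1d1 was at 105.1 and 122 CPM in titled WT with high Esr2 and 107 to 114 CPM with low Esr2, and at 55.3 to 85.0 CPM in titled KO with high Esr2 against 67.7 and 61.9 CPM with low. Zfx, an X-linked zinc finger gene (chromosome X, 94074631 to 94150645), had 59.1, 72.0 and 105.2 CPM in WT male 1, 2 and 3 and 93.4, 82.1 and 101.6 CPM in WT female 1, 2 and 3. In titled KO it had 50.5, 52.2 and 22.9 CPM in males and 56.2, 58.8 and 46.1 CPM in females. The values of each gene were lower in titled KO, as the rule requires, and overlapped between high and low Esr2 within titled WT and within titled KO.

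Titled sex was the one factor of the design that the rule did not use, and it was tested on the counts with edgeR's quasi-likelihood test. Sex by transcript, which was uneven between titled WT and titled KO, was not tested. No member passed an adjusted p of 0.05 for female minus male averaged over the titled genotypes, within titled WT or within titled KO, and none passed the interaction of genotype and sex. Over all 13692 genes tested the number that passed was also 0 (0%) in each. At an unadjusted p under 0.05 there were 4 members (2.05%) for the average against 7.06% of all genes, 0 in titled WT against 6.52%, 20 (10.3%) in titled KO against 5.27%, and 3 (1.54%) for the interaction against 4.81%. With DESeq2 and with limma voom no member passed in any of them, while DESeq2 called 5, 30, 0 and 3 genes and voom 0, 348, 0 and 0. The members with the lowest p were Gabpa for the average (log2 fold change 0.35, SE 0.12, adjusted p = 0.662), Rab18 within titled KO (0.43, SE 0.15, adjusted p = 0.849) and Mzt1 for the interaction (0.68, SE 0.28, adjusted p = 0.900). Rab18 was at 67.7, 88.4 and 66.3 CPM in titled KO males and at 97.6, 108 and 94.1 CPM in titled KO females, which do not overlap. The median female minus male change of the members was 0.06 averaged over the genotypes, -0.01 within titled WT and 0.12 within titled KO. Over all genes it was -0.002, 0.005 and -0.005. By Xist, KO male 1, KO male 2, KO female 2 and KO female 3 were female, and by Y-linked transcripts KO male 3 and KO female 1 were male. Titled KO males and titled KO females thus had the same make-up by transcript, and their contrast cannot measure sex. The average and the interaction draw on that contrast too. These tests include the 4 libraries whose sex-linked transcripts contradicted the title. Leaving them out kept KO male 3 as the lone titled KO male library, whose spread was assumed to be that of the other groups. From that set only the titled KO minus titled WT difference is given. Its median over the members was -0.51, against -0.50 with all libraries, and the rule fixed its sign in advance.

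Members lay on every autosome and on the X chromosome. Chromosome 18 held 10 of its 256 genes as members (3.91%), chromosome 3 held 19 of 503 (3.78%), chromosome 6 held 17 of 504 (3.37%) and the X chromosome 10 of 345 (2.90%), while chromosome 2 held 8 of 853 (0.938%) and chromosome 13 held 3 of 388 (0.773%). The X-linked members included Zfx, Ddx3x, Mtm1, Dynlt3, Fundc1, Thoc2, Hccs, Pls3 and Dlg3. Of 191 members with a RefSeq position, 81 overlapped another annotated gene and 110 did not. Because the kits do not mark the strand, reads of overlapping genes cannot be told apart. Such members are uncertain, among them Dcun1d1 (with Gm15952), Chmp1b (with Gnal), Gabpa (with Atp5j) and the pair Trnt1 and Crbn, which overlap each other.

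RefSeq promoter windows of 250 bases before and 50 after the start (GRCm38.p6) were matched for 146 members and 8674 genes in all. The full estrogen response element (GGTCA, any 3 bases, TGACC) was found in none of them on either strand. Its arm GGTCA alone was in 37.7% of member windows and 37.4% of all. The Sp1 motif GGGCGG (65.1% against 65.7%), the CCAAT box CCAAT (38.4% against 39.5%), the CRE TGACGTCA (3.42% against 3.41%) and the ETS motif CCGGAAGT (7.53% against 9.44%) came within 2 percentage points. The E-box CACGTG was in 16.4% of member windows and 10.8% of all, the YY1 motif in 3.42% and 1.94%, the NRF1 motif in 3.42% and 2.32%, and the TATA box TATAAA in 4.79% and 6.46%. Both strands were searched, motifs could overlap, and a match is not evidence of binding. In contrast to the transcripts, the windows of members were as rich in G and C as those of all genes, with medians of 61.7% and 61%.

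The 250 bases before the start are shown for 3 members with wide gaps and an element arm, because the study concerns an estrogen receptor. The arm, GGTCA or its reverse complement, is in capitals, and all 3 genes lie on the plus strand of GRCm38.p6, at chr16:44139541-44139790 for Naa50, chr11:17159048-17159297 for Ppp3r1 and chrX:71210517-71210766 for Mtm1.
Naa50: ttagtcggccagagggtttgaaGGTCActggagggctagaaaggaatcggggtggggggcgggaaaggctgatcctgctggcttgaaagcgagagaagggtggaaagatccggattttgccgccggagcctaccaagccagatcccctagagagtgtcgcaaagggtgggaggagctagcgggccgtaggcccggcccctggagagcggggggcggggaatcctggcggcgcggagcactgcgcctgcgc
Ppp3r1: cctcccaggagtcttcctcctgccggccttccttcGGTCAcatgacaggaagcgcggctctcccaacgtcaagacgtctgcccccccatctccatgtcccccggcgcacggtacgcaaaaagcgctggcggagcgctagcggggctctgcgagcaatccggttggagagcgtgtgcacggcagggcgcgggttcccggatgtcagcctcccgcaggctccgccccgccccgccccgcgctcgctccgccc
Mtm1: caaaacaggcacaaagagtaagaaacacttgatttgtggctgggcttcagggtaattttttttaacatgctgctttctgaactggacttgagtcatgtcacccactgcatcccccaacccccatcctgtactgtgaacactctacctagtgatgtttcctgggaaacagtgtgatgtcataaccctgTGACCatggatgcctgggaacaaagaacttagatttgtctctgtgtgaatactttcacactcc
Naa50 and Ppp3r1 carry the arm as GGTCA, 228 and 215 bases before the start, and Mtm1 carries its reverse complement 63 bases before it. The GC content of these windows was 65.2% in Naa50, 70.8% in Ppp3r1 and 44.8% in Mtm1, so that the first 2 join a GC-rich promoter to a transcript of low GC content.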

How the data were processed

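RNA-seq was measured in 12 libraries of sorted Tregs. The authors deposited raw counts per gene for 26609 genes and log2 values for 24584. Per the submitters' processing notes, HISAT2 2.0.5, featureCounts 1.5.0-p2, Subread, edgeR and the build GRCm38 were used. The strand setting and annotation release were not found in the labels. The deposited log2 values equal edgeR log2 CPM with TMM scaling and a prior count of 0.25, to within 5e-14. CPM in the text are counts over TMM-scaled totals, and differences between titles are on the deposited log2 scale, with the SE from the spread of 6 and 6 libraries.

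Sex was tested with edgeR 4.0.16 (R 4.3.3; quasi-likelihood F test, robust, filterByExpr, 13692 genes, 1 model of 4 group means, two-sided, Benjamini-Hochberg over all genes), checked on simulated data. All 195 members passed the filter. DESeq2 1.42.0 and limma 3.58.1 voom were alternatives. Labels do not say that libraries are separate mice, and p-values then reflect only how these samples spread, which may be technical. Title numbers repeat (WT male 2 occurs on 2 titles; libraries are numbered within groups).

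GC content and lengths come from the longest GENCODE M21 transcript (97.8% of genes matched), positions from RefSeq GRCm38.p6. Trends used natural splines with 5 df per library. Named genes were the 12 widest gaps, the 8 largest differences, the 4 most abundant members, up to 4 per list, Dcun1d1 and Zfx, and 3 genes each side of a threshold, with Gm, Rik and LOC names passed over in the first 4 of these. Other names were chosen after their values were seen, and 1 member is not reported here. Members and lists were chosen with earlier results of these data known. Intervals and floors (3 counts, 0.176 to 0.287 CPM) cover counting error only.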

Additional observations from a re-analysis of the deposited data

Results flagged for a closer look

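Each named member was examined for a lone library, one whose gap to the nearest other library filled most of the range of its 6 titled WT or titled KO libraries. Of 138 such groups of 6, 4 held one, where chance gives about 1 in 20. Efcab7 was at 0.191 CPM in KO male 3, against a titled KO median of 3.59 CPM. Zfx was at 22.9 CPM in KO male 3, below the other titled KO libraries at 46.1 to 58.8 CPM. Hnrnpa2b1 was at 1146 CPM in KO male 1, above the titled KO median of 1053 CPM and nearest to titled WT. Dcun1d2 was at 61.96 CPM in WT male 1, above the titled WT median of 52.9 CPM.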

How the results depend on the processing

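The number of genes lower in every titled KO library moved most when libraries were left out, partly because fewer libraries make the rule easier to meet. It ranged from 207 to 361 without any one library, with 194 or 195 of the members among them. Leaving out the 4 libraries with contradicting sex-linked transcripts gave 507 (all 195 members included), and leaving out WT female 1 and WT female 2 gave 319 (193 members), an alternative chosen after seeing the data. Members separated over 12 libraries stay so in any part of them. The members kept when libraries are left out were thus fixed in advance, apart from the level threshold. With the GC and length trend removed it was 118, of which 54 were members. With other scaling it was 166 with DESeq2 size factors (164 members), 182 with the upper quartile (166 members) and 164 with library totals only (155 members). Thinning, also added after seeing the data, gave 170 (151 members). Of 1311 alternative values of the mean difference of 69 named members, 41 moved by more than 1 SD and 1 changed sign. The value that changed sign was that of Bclaf1 after the trend was taken out (0.024), and the cause was not tested. The 1311 values include those with libraries left out, where the sign of a member was fixed in advance. The count of sign changes therefore says nothing about those settings. Within titled WT the Esr2 difference of the members was 0.033 with 10 counts as the limit, in place of -0.01, and the cause was not tested. With that limit Scp2 was lower in the high libraries within both titles, and Zfp191, Arrdc4 and Plekha1 were higher within both. The share of all genes that did so was not counted, so nothing is read from these names. No member passed a test of titled sex under the alternatives tried, except within titled KO without KO male 2. There 4 did (Bzw1, Dars, Nr1d1 and Abcd3, of 324 genes), although titled sex and sex-linked transcripts disagreed in this group. Across all libraries left out singly the number was 0 to 4.

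Title numbers did not pair the libraries: deviations of 18 same-numbered pairs correlated between -0.43 and 0.13. A block on the title number gave 246 genes that met the rule, 164 of them members, and 0 members past the threshold of a sex test.

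Depth limited low members most: 0 counts in the shallowest library allow a level of up to 0.287 CPM.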

Other observations

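Lists of N-terminal acetyltransferase subunits and of circadian clock genes were drawn up after the members had been seen, so their counts are descriptions only. Of 10 acetyltransferase genes above the level threshold 3 were members, Naa50, Naa30 (difference of mean log2 CPM -0.73, SE 0.12) and Naa15 (-0.42, SE 0.09), with a list median of -0.14. Naa15 is the auxiliary subunit of the NatA complex that also binds Naa50, and Naa30 is the catalytic subunit of NatC. Naa10, the catalytic subunit of NatA, differed by 0.06 (SE 0.15), and Naa35, a NatC partner, by -0.20 (SE 0.08), and neither was a member. Naa30 was at 49.7 to 77.2 CPM in titled WT and 32.2 to 47.4 CPM in titled KO.

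Of 18 clock genes 3 were members, Nr1d1, Nr1d2 (-0.84, SE 0.19) and Bhlhe40 (-0.78, SE 0.17), which encode repressors of the clock loop, with a list median of -0.17. Nr1d2 was at 82.4 to 136 CPM in titled WT and 40.8 to 74.2 CPM in titled KO, and Bhlhe40 at 118 to 219.6 CPM and 77.8 to 113 CPM. The activators Arntl (-0.07, SE 0.15) and Clock (-0.14, SE 0.29) and the period genes Per1 (0.09, SE 0.25) and Per2 (-0.19, SE 0.40) overlapped between the titles. The hour at which mice were sampled is not given in the labels.

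Counts in name families of basic machinery were 0 of 75 ribosomal protein genes (median difference 0.15), 0 of 75 mitochondrial ribosomal protein genes (0.01) and 0 of 38 proteasome genes (-0.03). In families of this size 0 is near the 1.81% of all genes that met the rule, so nothing is read from it. Zinc finger genes, whose median GC content was 45.8%, held 6 members among 350, and solute carriers (51.3%) 2 among 175.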
